A study of Mus musculus with 6 samples.

Results

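The region studied here is the cluster of the chemokine genes Cxcl9, Cxcl10 and Cxcl11 on mouse chromosome 5, measured by the accessibility of its chromatin. Its members are the ATAC-seq peaks that overlap the interval from 92680000 to 92860000 on chromosome 5 (build mm9), chosen by position alone, and they number 9 of the 43020 peaks in the deposited table. In ATAC-seq a transposase cuts and tags open DNA, and read counts over a region follow its accessibility. The primary tumour group held 3 libraries of AKP organoid lines. Both groups carried the genotype that the labels call AKP. These lines go back to naive organoids implanted by colonoscopy into immunocompetent C57Bl6 mice. The resulting primary tumours were put back into organoid culture and passaged until other cells were gone. The naive group held 3 libraries of the AKP organoids before transplantation. All 3 tumour-derived lines shared the stay in the mouse, the outgrowth step and the later passages, whose effects cannot be told apart. Nothing in the labels says whether the 3 naive libraries came from separate cultures, so their spread may be technical. The sources used here do not give the strain of the organoids or the age of the mice.

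Cxcl9, Cxcl10 and Cxcl11 encode secreted chemokines that are induced by interferon gamma, and in part by type I interferon and NF-kB signalling. They bind the receptor CXCR3 on activated T cells and natural killer cells and draw them into inflamed tissue and tumours. Interferon acts on these genes through DNA elements such as GAS elements and the interferon-stimulated response element (ISRE), which is bound by interferon-regulatory factors. In colorectal tumours both immune and epithelial cells can make the proteins. Mice of the C57BL/6 strain carry a defective Cxcl11, and the RefSeq annotation of that strain's genome (GRCm38.p6) lists Cxcl11 as a transcribed pseudogene. In the same annotation the genes stand in the order Naaa, Sdad1, Cxcl9, Art3, Cxcl10, Cxcl11, Nup54 and Scarb2 from low to high coordinates, with Cxcl9 and Cxcl10 on the minus strand. Sdad1, Nup54 and Scarb2, a ribosome biogenesis factor, a nuclear pore protein and a lysosomal membrane protein, flank the chemokine genes. RefSeq positions are on another build than the peaks, so they were used for gene order alone. The rule for the region gives about 92775000 to 92778500 as the place of Cxcl10 in mm9, and that is the one gene to which a peak is assigned below. Whether any of the other peaks lies at Cxcl9 or Cxcl11 was not determined.

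RefSeq promoter windows, from 250 bases before to 50 bases after the annotated gene start, were found for 2 of the 3 genes and are printed to show which letters of known interferon and NF-kB response elements each holds. They are credited to RefSeq, build GRCm38.p6, and run 5′ to 3′ along the minus strand, from chr5:92348840-92349139 for Cxcl10 and from chr5:92328030-92328329 for Cxcl9. Capitals mark letters that match the ISRE core (GAAA, any 2 bases, GAAA), the NF-kB site (kappaB) or the AP-1 site TGANTCA, each searched on both strands.
Cxcl10 promoter: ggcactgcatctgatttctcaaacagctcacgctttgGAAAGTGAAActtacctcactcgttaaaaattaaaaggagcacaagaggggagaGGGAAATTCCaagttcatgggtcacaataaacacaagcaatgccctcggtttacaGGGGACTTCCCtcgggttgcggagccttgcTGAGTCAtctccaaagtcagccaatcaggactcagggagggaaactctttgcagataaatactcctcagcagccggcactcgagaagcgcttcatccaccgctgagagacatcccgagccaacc
Cxcl9 promoter: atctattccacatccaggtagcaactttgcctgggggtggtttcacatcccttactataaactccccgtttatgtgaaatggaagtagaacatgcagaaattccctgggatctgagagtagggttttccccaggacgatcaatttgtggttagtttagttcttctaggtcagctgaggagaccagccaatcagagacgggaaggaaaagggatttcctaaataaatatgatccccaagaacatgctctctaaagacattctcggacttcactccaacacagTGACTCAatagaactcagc

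In the Cxcl10 window the ISRE letters lay from position -213 to -204 relative to the gene start. A kappaB match lay from -159 to -150, and overlapping kappaB matches covered -104 to -94. An AP-1 match lay from -74 to -68, and the letters ACAAT, the core bound by SOX factors, from -136 to -132. In the Cxcl9 window the search found the AP-1 letters from 32 to 38 after the gene start. It found no match to the other 4 motifs, which says only that these letters are not in that window. Response elements spelled otherwise were not searched for, so the window may still hold interferon or NF-kB elements. The GAS letters TTCNNNGAA were in neither window. Over 32851 RefSeq promoter windows of the same length, 3.44% held the ISRE letters, 8.46% a kappaB match, 7.81% the AP-1 letters, 8.30% the GAS letters and 31.0% ACAAT. These matches are a description of sequence and were not set against the peaks, which are on the other build.

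Chromosome 5 was low as a whole in primary tumour replicate 1, which bears on every value below. Its median log2 ratio to the naive mean was -0.34 over 2296 tested peaks of the chromosome and -0.39 over the 239 tested peaks between 90 and 100 Mb, against -0.04 and -0.06 in primary tumour replicate 2 and 0.05 and 0.04 in replicate 3. The naive libraries lay between -0.07 and 0.10 on both. Other chromosomes were not set beside these medians, so whether the low level is particular to chromosome 5 was not tested.

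Accessibility summed over the whole chemokine window was close between the groups. Cxcl10 is the only gene to which a peak is assigned, so the sum describes the window and not the chemokine genes themselves. The 9 peaks together had 175, 197 and 231 CPM in primary tumour libraries 1, 2 and 3, against 185, 208 and 196 CPM in naive libraries 1, 2 and 3. The means were 201 ± 27.9 CPM in the primary tumour group and 197 ± 11.5 CPM in the naive group (SD, n = 3 each), and the log2 ratio of the means was 0.03. The groups overlapped, with both the lowest and the highest library in the primary tumour group. Without primary tumour replicate 1 the log2 ratio was 0.12. CPM here is the count relative to the library's total over tested peaks, per 1000000, after TMM scaling, which corrects for differences in composition between libraries. The sums rest on 614, 373 and 486 reads in the primary tumour group and 216, 1134 and 459 reads in the naive group. Library totals over all peaks ran from 1916819 to 3594735 in the primary tumour group and from 1185356 to 5987545 in the naive group.

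**Figure D1:**
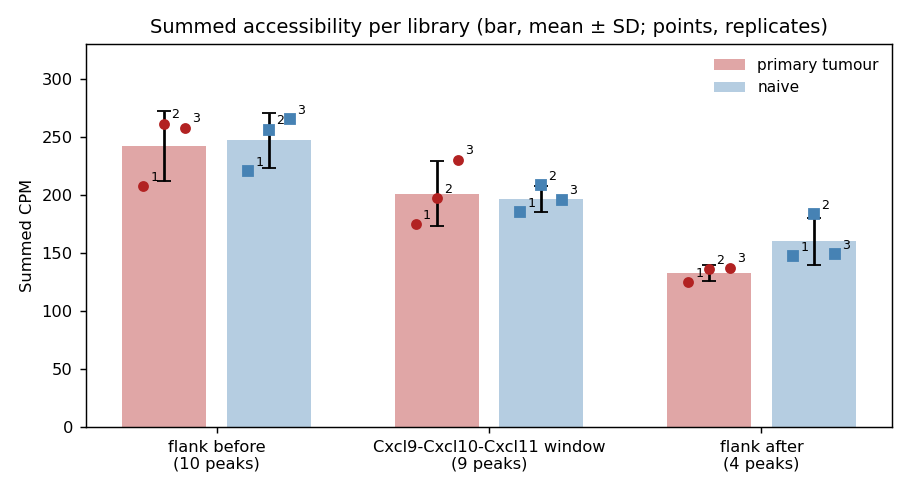
Summed CPM of the peaks in the chemokine window and in the windows of equal width (180 kb) on its low-coordinate (before) and high-coordinate (after) sides, for the primary tumour group (red circles) and the naive group (blue squares). Bars give the mean and error bars the SD (n = 3 each), and numbers give the replicate; the chemokine window averaged 201 CPM in the primary tumour group and 197 CPM in the naive group.

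The same held for most of the peaks one by one. Of the 9 peaks, 8 had enough reads to be tested. No peak was called higher and 1 was called lower in the primary tumour group at an adjusted p under 0.05 (edgeR's quasi-likelihood test, Benjamini-Hochberg adjustment over all 36179 tested peaks), against 14.4% of all tested peaks called in either direction (8.00% higher and 6.40% lower). At an unadjusted p under 0.05 edgeR gave the same 1 lower member and 0 higher, against 27.4% of all tested peaks in either direction, and the DESeq2 Wald test called 0, against 13.7%. With 8 tested members, the adjusted edgeR count was near its background share. The unadjusted edgeR count and the DESeq2 count were below theirs, and 8 peaks are few for such a comparison. The median log2 fold change of the 8 tested members was 0.04, and that of all tested peaks was -0.01. The 7 tested members that were not called had log2 fold changes from -0.17 to 0.46 and adjusted p-values from 0.611 to 0.958 (edgeR). The groups did not overlap at 1 of the 8 tested members, with the primary tumour group below, against 30.8% of all tested peaks in either direction. They also did not overlap at the untested peak, with the primary tumour group above. In a population of cells, fewer cells with an open site and a less open site in each cell cannot be told apart.

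**Figure D2:**
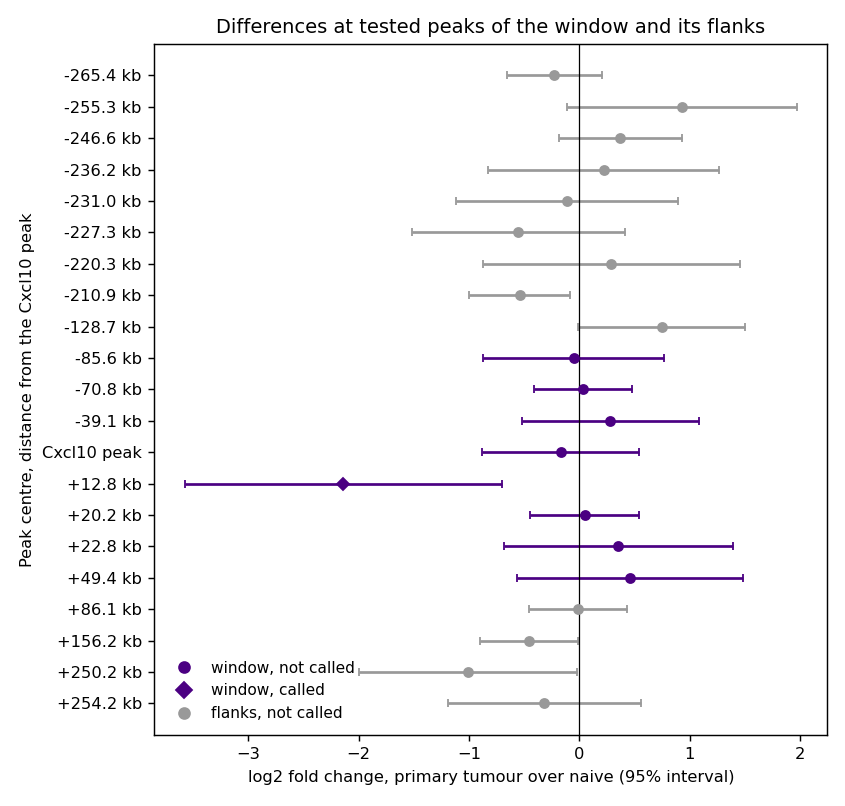
Log2 fold change of the primary tumour group over naive with its 95% interval (edgeR, n = 3 each) for the tested peaks of the chemokine window (purple) and of its flanks (grey), placed by distance of the peak centre from the centre of the Cxcl10 peak. The diamond is the one called peak, at a log2 fold change of -2.14, and the other 7 members lie between -0.17 and 0.46.

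The peak at Cxcl10, the gene for the interferon-induced chemokine IP-10, did not pass the test. It ran from 92777297 to 92778766 (1469 bp) and overlapped the high-coordinate end of the interval given for the gene, which on the minus strand is the end where transcription starts. It had 17.97, 14.3 and 18.97 CPM in primary tumour libraries 1, 2 and 3, against 24.0, 16.5 and 18.4 CPM in naive libraries 1, 2 and 3. The groups overlapped, and naive replicate 1, which is the shallowest library and held 28 reads there, was the highest. The means were 17.1 ± 2.47 CPM in the primary tumour group and 19.6 ± 3.90 CPM in the naive group (SD, n = 3 each). The log2 fold change was -0.17 (SE 0.35, 95% interval -0.88 to 0.55, adjusted p = 0.816, edgeR), and it was -0.19 without primary tumour replicate 1. In linear terms the interval runs from 0.543 to 1.46 times the naive level. A lower or a higher level within that range remains possible.

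The Cxcl10 peak was wide but of modest level in both groups. Per kilobase of peak its level was 11.6 CPM in the primary tumour group and 13.4 CPM in the naive group, and its level over all libraries stood at the 34.9th percentile of all peaks, whose median was 16.5 CPM per kb. Its width stood at the 86.8th percentile. It took 10.3%, 7.24% and 8.23% of the reads of the region in primary tumour libraries 1, 2 and 3, and 12.96%, 7.94% and 9.37% in naive libraries 1, 2 and 3. The exact (Clopper-Pearson) 95% intervals of these shares spanned 4.82% to 12.9% over the primary tumour group and 6.43% to 18.2% over the naive libraries, and so overlapped. Such intervals cover counting error only and leave out variation between libraries. They treat reads as independent, and are too narrow where PCR copies of the same molecule were left in.

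**Figure D3:**
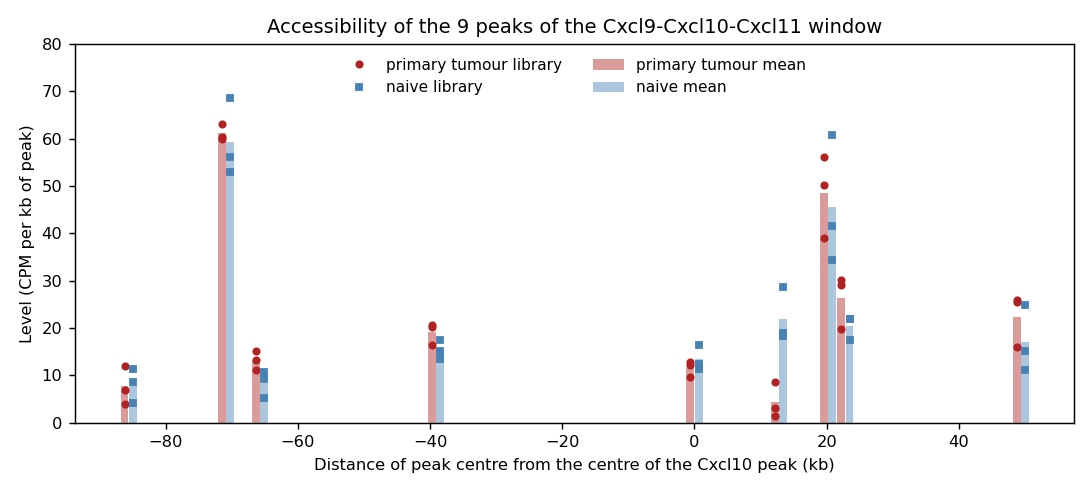
Level of each of the 9 peaks in CPM per kb of peak, against the distance of its centre from the centre of the Cxcl10 peak in kb, with the primary tumour group in red (left bar of each pair, circles) and the naive group in blue (right bar, squares). Bars are means (n = 3 each) and points are libraries; the tallest pairs are the strong peaks at -70.8 and 20.2 kb, and the Cxcl10 peak at 0 kb is low in both groups.

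A single peak of the region was called less accessible in the primary tumour group, and most alternatives did not keep that call. It lay from 92790636 to 92790964, 12.8 kb on the high-coordinate side of the Cxcl10 peak, and was 328 bp wide. It held 10, 2 and 1 reads in primary tumour libraries 1, 2 and 3, against 7, 34 and 22 reads in naive libraries 1, 2 and 3. In normalised counts these are 2.85, 1.06 and 0.474 CPM in the primary tumour group and 6.01, 6.25 and 9.40 CPM in the naive group. All 3 primary tumour libraries were thus below all 3 naive libraries, an order that 15.3% of all tested peaks showed.

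The means at this peak were 1.46 ± 1.24 CPM in the primary tumour group and 7.22 ± 1.89 CPM in the naive group (SD, n = 3 each). The log2 fold change was -2.14 (SE 0.70, 95% interval -3.58 to -0.70, adjusted p = 0.0393, edgeR), a 4.41-fold lower level. The peak passed the filter on low counts through the naive libraries alone, since 0 primary tumour and 3 naive libraries reached the filter level of 4.54 CPM of raw total, so the filter itself favours a difference of this sign. The call was lost under 10 of the 14 alternatives in which the peak was tested. It did not pass with total-count scaling (adjusted p = 0.0553), with the DESeq2 Wald test (adjusted p = 0.0528), with the replicate number as a block (adjusted p = 0.0846, edgeR), or with an offset per library for chromosome 5 (adjusted p = 0.0625, edgeR) or for the 10 Mb around the region (adjusted p = 0.0668, edgeR).

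The call was also lost in most fits that left out 1 library. Without primary tumour replicate 2 or 3 the log2 fold change was -1.97 or -1.76 and the adjusted p 0.107 or 0.138 (edgeR). Without naive replicate 1, 2 or 3 the log2 fold change was -2.24, -2.26 or -1.93 and the adjusted p 0.0549, 0.115 or 0.185 (edgeR). How far the smaller number of libraries alone raised these p-values was not tested. Without primary tumour replicate 1, the highest of its group, the log2 fold change was -3.18 and the call was kept (adjusted p = 0.0133, edgeR). The sign was negative in every one of the 14 alternatives. As a share of the region's reads, the peak took 1.63%, 0.536% and 0.206% in primary tumour libraries 1, 2 and 3, against 3.24%, 2.998% and 4.79% in naive libraries 1, 2 and 3. The exact 95% interval in primary tumour replicate 1, 0.784% to 2.97%, overlapped those in naive replicate 1 (1.31% to 6.56%) and naive replicate 2 (2.09% to 4.16%) and lay below that in naive replicate 3 (3.03% to 7.17%). In primary tumour replicate 2 it reached 1.92% and overlapped that in naive replicate 1 alone. In primary tumour replicate 3 it reached 1.14% and lay below all 3 naive intervals. With this peak left out, the other 8 peaks summed to 200 ± 29.0 CPM in the primary tumour group and 189 ± 11.6 CPM in the naive group.

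Most of the signal of the region came from a pair of strong peaks on either side of Cxcl10, at nearly the same level in both groups. Together they took between 54.2% and 70.4% of the region's reads in a library. The first lay from 92706679 to 92707686, at 60.7, 60.3 and 63.6 CPM in primary tumour libraries 1, 2 and 3 and 56.6, 69.1 and 53.4 CPM in naive libraries 1, 2 and 3. The primary tumour libraries lay inside the naive range. Its log2 fold change was 0.03 (SE 0.22, 95% interval -0.41 to 0.48, adjusted p = 0.951, edgeR), so a difference beyond 0.753 to 1.39 times the naive level lies outside the interval.

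The other strong peak lay from 92797621 to 92798896, 20.2 kb beyond the Cxcl10 peak. It had 49.6, 64.0 and 71.6 CPM in primary tumour libraries 1, 2 and 3, against 43.8, 77.5 and 52.96 CPM in naive libraries 1, 2 and 3. The lowest and the highest library were both naive. Its log2 fold change was 0.05 (SE 0.24, 95% interval -0.44 to 0.54, adjusted p = 0.932, edgeR). Per kilobase the first of the pair had 61.1 CPM in the primary tumour group and 59.3 CPM in the naive group, and the other 48.4 and 45.6 CPM. They stood at the 92.3rd and 87.5th percentiles of all peaks by this level, and the authors' peak scores, 147 and 89.9, were the highest of the region.

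The widest member, from 92690918 to 92693938, varied widely between libraries of the same group. It had 12.3, 21.2 and 36.0 CPM in primary tumour libraries 1, 2 and 3, against 25.7, 12.9 and 34.2 CPM in naive libraries 1, 2 and 3. The groups overlapped over nearly their whole ranges, and the lowest library of each group was its deepest, primary tumour replicate 1 and naive replicate 2. The part of sequencing depth in this order was not tested. The means were 23.2 ± 12.02 CPM in the primary tumour group and 24.3 ± 10.7 CPM in the naive group (SD, n = 3 each). The log2 fold change was -0.05 (SE 0.40, adjusted p = 0.958, edgeR). Its width of 3020 bp stood at the 99.6th percentile of all peaks, and at 7.67 CPM per kb in the primary tumour group and 8.03 CPM per kb in the naive group it was the weakest of the region per kilobase over all libraries.

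The remaining 3 tested peaks had higher mean values in the primary tumour group that did not pass the test. From 92738598 to 92739359 the values were 12.5, 15.3 and 15.7 CPM in primary tumour libraries 1, 2 and 3, against 10.3, 13.2 and 11.5 CPM in naive libraries 1, 2 and 3 (log2 fold change 0.28, SE 0.39, adjusted p = 0.707, edgeR). From 92800721 to 92801014, 1825 bp from the second strong peak, they were 8.84, 5.82 and 8.54 CPM against 5.15, 6.43 and 6.41 CPM in the same order of groups (log2 fold change 0.35, SE 0.51, adjusted p = 0.719, edgeR). The groups overlapped at both. The peak from 92827202 to 92827650 had 7.13, 11.6 and 11.4 CPM in the primary tumour group and 11.2, 4.96 and 6.83 CPM in the naive group, again overlapping (log2 fold change 0.46, SE 0.50, 95% interval -0.56 to 1.49, adjusted p = 0.611, edgeR).

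The peak from 92712197 to 92712478 was too weak to be tested. It held 11, 7 and 9 reads in primary tumour libraries 1, 2 and 3, and 3, 8 and 7 reads in naive libraries 1, 2 and 3. After scaling these are 3.14, 3.70 and 4.27 CPM against 1.47 to 2.99 CPM in the naive group, so the primary tumour libraries all lay above the naive ones. This order was seen at 15.5% of all tested peaks, a set that leaves this peak out. The peak had the lowest authors' score of the region, 5.18.

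**Figure D4:**
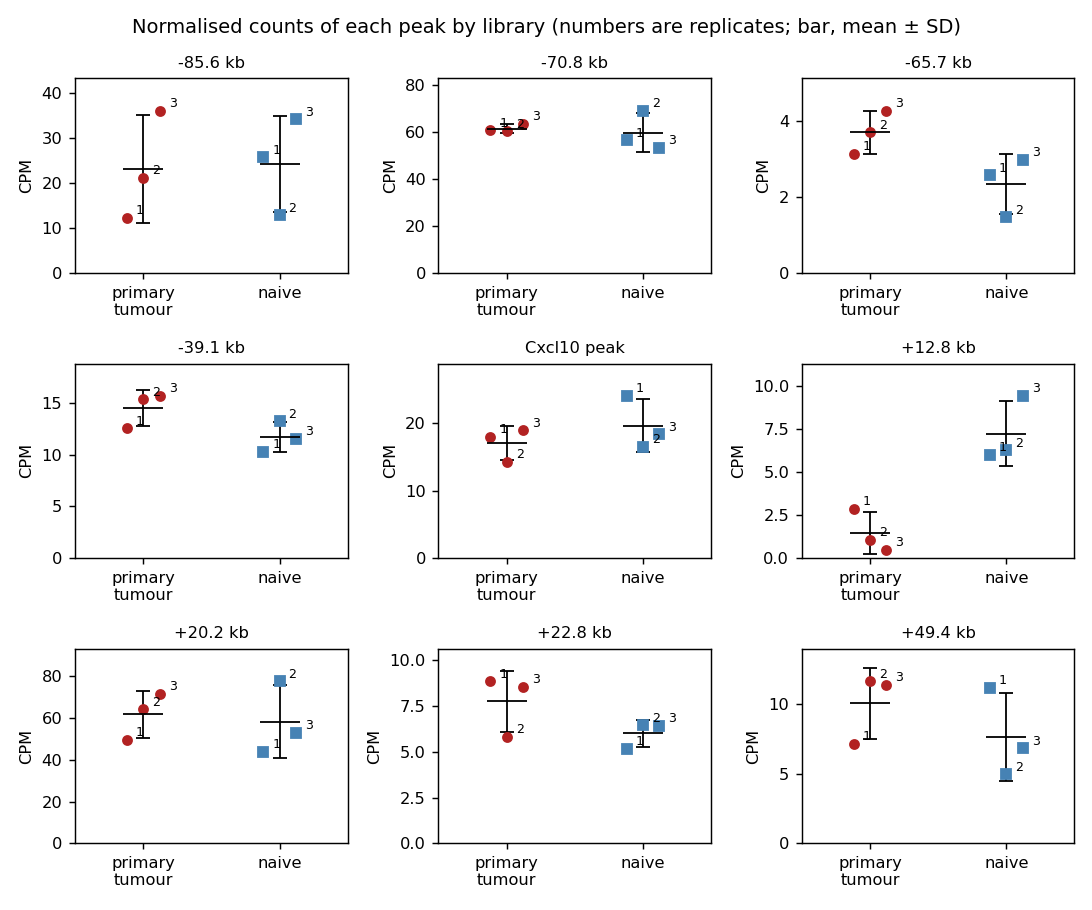
Normalised counts (CPM) of the 9 peaks in each library, 1 panel per peak in order of position, titled by distance from the Cxcl10 peak, with the primary tumour group left (red circles) and the naive group right (blue squares). Numbers give the replicate and black bars the mean ± SD (n = 3 each). The groups are apart at 12.8 kb, where primary tumour libraries are the lower, and at -65.7 kb, where they are the higher at 11 reads or fewer each, and they overlap in the other 7 panels.

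In position the members were unevenly spaced. They spanned 136.7 kb and covered 8882 bp, or 4.93% of the window, with gaps from 1.83 to 37.9 kb. The widest gap lay just before the Cxcl10 peak, from 92739359 to 92777297, where the table lists no peak. Chromosome 5 as a whole held 3.26 peaks per 180 kb, and the adjacent windows of that width held 10 and 4. The authors' peak numbers run over 19 consecutive values between the first and last member, 9 of which are in the table. The numbers on either side of the widest gap are not consecutive, so the gap was not shown to be closed chromatin.

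Next to the chemokine region, the flanks gave no call. Of 14 peaks in the windows of equal width, 10 on the low-coordinate and 4 on the high-coordinate side, 13 were tested and 0 were called by edgeR or by DESeq2. At an unadjusted p under 0.05 edgeR gave 3 of the 13, with log2 fold changes of -0.54, -0.46 and -1.01, where 27.4% of all tested peaks reached that level. The nearest tested peak on the low-coordinate side, from 92648779 to 92649799, had 24.5 CPM in the primary tumour group and 14.9 CPM in the naive group (log2 fold change 0.75, adjusted p = 0.188, edgeR). The nearest on the high-coordinate side, from 92863635 to 92864562, had 62.7 and 62.4 CPM in the same order (log2 fold change -0.01, adjusted p = 0.981, edgeR). Summed over the low-coordinate flank, the levels were 242 ± 30.1 CPM in the primary tumour group and 247 ± 23.6 CPM in the naive group, and the groups overlapped. On the high-coordinate side they were 133 ± 6.89 and 160 ± 20.5 CPM in the same order. There the primary tumour libraries, at 125, 136 and 138 CPM, all lay below the naive libraries, at 148, 184 and 149 CPM. These sums had no test. The chemokine window relative to the sum of both flanks was 0.527, 0.497 and 0.583 in primary tumour libraries 1, 2 and 3, against 0.503, 0.474 and 0.473 in naive libraries 1, 2 and 3. Primary tumour replicate 2 lay below naive replicate 1, so the groups overlapped.

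Primary tumour replicate 1, low over chromosome 5, also had the lowest summed level of the chemokine region. Taken relative to the median peak of the 10 Mb, the log2 ratio of the summed region was 0.20 instead of 0.03, and the log2 fold change of the Cxcl10 peak was 0.03 instead of -0.17, with the sign turned. Of the 239 tested peaks in the 10 Mb, 17.2% were called, 11 higher and 30 lower. Over chromosome 5 the share was 14.5%, with 128 higher and 205 lower. Of all tested peaks 14.4% were called, 8.00% higher and 6.40% lower.

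Among 14296 tested peaks on other chromosomes with a mean of at least 20 CPM, the 3 that followed the summed chemokine region most closely over the 6 libraries, by Pearson's r of log2(CPM + 1), were on chromosome 4 from 150288324 to 150289852 (r = 0.985), chromosome 9 from 50664774 to 50665557 (r = 0.962) and chromosome 16 from 92953112 to 92956191 (r = 0.960). Their log2 fold changes were 0.04, -0.02 and -0.04, near 0 by the way they were chosen, since the summed region itself differed little between the groups. They were picked as the highest of many over few libraries that share depth and scaling, and are given as a description.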

How the data were processed

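ATAC-seq was measured in 6 libraries, 3 per group, from 50000 cells each with paired reads of 75 bases, per the labels' protocols. The authors deposited raw counts per peak over 1 peak set for all samples, per the file headers and row names. The submitters' processing notes name Bowtie, Picard, SAMtools, MACS2 and bedtools and the build mm9. The sources used here give no versions, roles, treatment of duplicates or correction for the transposase offset. Duplicates left in would inflate counts most where little DNA was amplified. The authors' score per peak, in the deposited row names, is used only to describe peaks, and the sources used here do not define it. Starts and ends are printed as deposited.

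Groups and replicate numbers come from the sample titles. Members and alternatives were chosen with earlier results of these data known. Every peak of the window is named; likeness was ranked by Pearson's r. The filter filterByExpr of edgeR 4.0.16 (R 4.3.3) left 36179 of 43020 peaks. They were scaled by TMM on library totals over these peaks, and edgeR's 2-sided quasi-likelihood test was fitted in its robust form on group alone. SEs were derived from each fold change and its F value. The fit was tested on simulated counts. Summed levels and shares had no test. DESeq2 1.42.0 was an alternative. Cell-type markers and other interferon-pathway genes were not analysed here, since no mm9 annotation was used.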

Additional observations from a re-analysis of the deposited data

How the results depend on the processing

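Among the tested peaks of the chemokine region, those not called in primary tumour against naive organoids stayed uncalled in every alternative in which they were tested. At the peak from 92790636 the log2 fold change was -2.14 and the call was lost with total-count scaling (-2.10), the DESeq2 Wald test (-2.19), an offset per library and 10 Mb window (-1.89) or chromosome (-1.94), and the replicate block (-2.32). Leaving out 1 library gave -3.18 to -1.76. It was kept with no filter, DESeq2 size factors, trended offsets and without primary tumour replicate 1. The number of called members was therefore 0 in place of 1 in those settings and, because the peak was then not tested, with at least 20 counts in at least 3 libraries; it was 0 to 1 with 1 library left out. Signs of values near 0 turned. The Cxcl10 peak had 0.028 with the offset per 10 Mb window and -0.29 to -0.03 with 1 library left out. The peak at 92690918 had 0.12 and 0.060 with offsets per 10 Mb window and chromosome and -0.52 to 0.32 with 1 library left out, and those at 92706679 and 92797621 had -0.059 to 0.16 and -0.11 to 0.33. The log2 ratio of the summed region (0.03) was 0.20 relative to the 10 Mb around it, -0.08 to 0.12 with 1 library left out and 0.076 without the called peak, a setting chosen after the data were seen. The causes were not tested.

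Over all peaks, 5210 were called, and 2215 to 5440 with 1 library left out (1366 to 3033 higher, 849 to 2407 lower), the lowest without naive replicate 2, the deepest library. The replicate block called 3539. Libraries with the same number deviated from their group means with correlations of -0.24, -0.11 and 0.01, and no pairing was assumed. All peaks lay wholly within the window, so that alternative changed nothing. Depth limits the untested peak, which held 11 reads or fewer in each library, and the peak from 92790636, with 1 to 10 reads in the primary tumour group.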
